A study of Mus musculus with 12 samples.

Results

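The cluster of miR-132 and miR-212 was described in the small RNA of colon and blood from mice with experimental colitis. It comprises the 4 mature arms miR-132-3p, miR-132-5p, miR-212-3p and miR-212-5p (in the deposited tables mmu-mir-132-3p, mmu-mir-132-5p, mmu-mir-212-3p and mmu-mir-212-5p), out of 1978 mouse miRNAs in the count table, of which 1405 had a count above 0 in any library. The cluster was selected on the read counts of the colon libraries, in which all 4 arms were higher in the mice given DSS (dextran sulfate sodium, a polysaccharide that injures the colonic epithelium when drunk). That comparison is therefore given as a description without a test. The comparisons of colon with blood rest in part on the same colon libraries and are likewise descriptions. The blood libraries were not used for the choice, and the comparison of DSS with control mice in blood was tested.

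All 12 libraries came from 6 young adult male C57BL/6 mice, each giving whole colon and whole blood. The 3 DSS mice drank water with 1.5% (wt/vol) DSS for 7 days and then plain water until sacrifice on day 8. The 3 controls, followed over the same time, had that water with no DSS added. In whole tissue, fewer cells of a type and less RNA per cell cannot be told apart. RNA was isolated with a different kit from each tissue, so tissue and kit cannot be told apart either. Total miRNA counts were 15060553 to 20106226 per colon library and 21127134 to 32944792 per blood library. In blood 74.7% to 83.0% of the counts belonged to miR-486a-5p and miR-486b-5p, which are identical erythroid miRNAs, against 0.251% to 0.442% in colon. Reads of this sequence were counted under both names. With each mature sequence counted once, totals were 15006514 to 19987322 per colon library and 12576492 to 19440594 per blood library.

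The labels of the samples go against the grouping used here. The DSS group was taken to be mice 1, 7 and 9, and the control group mice 2, 4 and 8. That grouping is the one named with the libraries in the study's figures. The disease-state labels instead give colitis for mice 1, 2 and 4, and control for mice 7, 8 and 9. With the labels' grouping no miRNA passed the threshold in either tissue, with 20 miRNAs at an unadjusted p under 0.05 in colon and 14 in blood (edgeR's quasi-likelihood test). The sign of the cluster's difference in colon is opposite under these groupings, and the values of the arms are given under both. The source and tissue fields also name opposite tissues for every library. The summed level of 4 erythroid miRNAs was 287255 to 577392 counts per 1000000 counts (CPM) in the libraries taken as blood and 1690 to 2571 CPM in those taken as colon, while the sum of 9 epithelial miRNAs was 950.4 to 1324 CPM and 55653 to 204162 CPM, respectively.

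miR-132 and miR-212 are processed from neighbouring hairpins of a common noncoding transcript. Their transcription is known to be induced by the factor CREB in neurons after activity, and miR-132 is also known as an inflammation-responsive miRNA of leukocytes and endothelium. The 3p arms are usually regarded as the guide strands. They share a seed, the bases with which a miRNA pairs to its targets, and the known targets of miR-132-3p include acetylcholinesterase and the Ras GTPase-activating protein Rasa1.

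The mature sequences are shown because the arms differ in their seeds, and so in the targets they can pair with. The seed (bases 2 to 8) is in capitals, and the sequences in the deposited tables were the same as those of RefSeq.
miR-132-3p: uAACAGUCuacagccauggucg
miR-212-3p: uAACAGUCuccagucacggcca
miR-132-5p: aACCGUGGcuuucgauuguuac
miR-212-5p: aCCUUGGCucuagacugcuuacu
The seed AACAGUC was held by miR-132-3p and miR-212-3p alone among the 1405 miRNAs that had a sequence. These 3p arms had 17 of 22 bases in common (77.3%) and differed by A10C, C14U, U17C, U20C and G22A, with positions counted from 1 at the 5′ end and the base of miR-132-3p given before that of miR-212-3p. None of the differences lies in the seed. The seeds of miR-132-5p and miR-212-5p were not found in any other of these miRNAs.

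The hairpins are given next, 5′ to 3′, to show where on them the arms lie, with both mature arms of each in capitals (RefSeq, build GRCm38.p6).
Mir212: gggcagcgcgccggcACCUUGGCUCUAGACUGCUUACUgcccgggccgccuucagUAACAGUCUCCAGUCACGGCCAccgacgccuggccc
Mir132: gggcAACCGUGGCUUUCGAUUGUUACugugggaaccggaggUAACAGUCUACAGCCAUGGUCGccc
Mir212 lies at chr11:75173388-75173478 (91 bases) and Mir132 at chr11:75173682-75173747 (66 bases), both on the plus strand and 203 bases apart. Both hairpins lie in intron 1 of the noncoding gene 1700016P03Rik (chr11:75172560-75177633, plus strand) and overlap none of its exons. The nearest protein-coding genes are Ovca2, 2195 bases away, and Hic1, which encodes a transcriptional repressor, 3869 bases away.

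**Figure D1:**
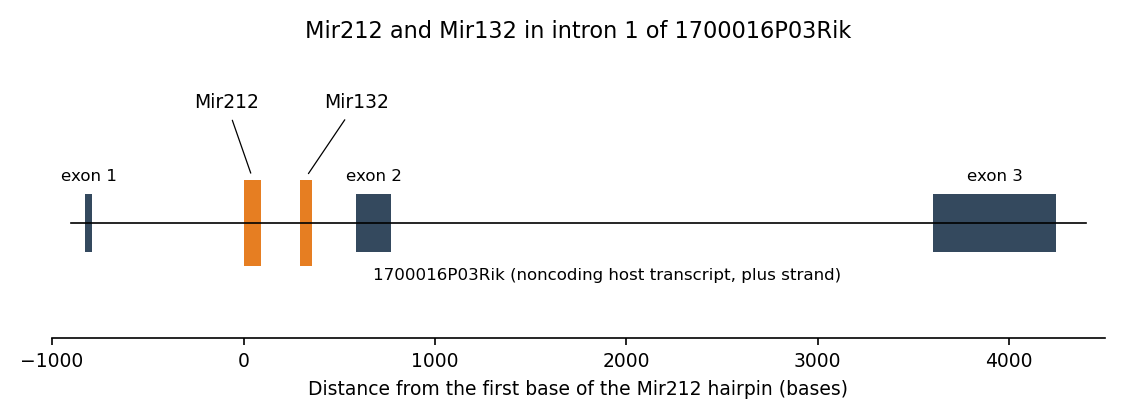
Map of the locus, with the distance in bases from the start of the Mir212 hairpin on the x axis, exons of 1700016P03Rik in dark blue and the hairpins in orange. Mir212 and Mir132 sit 203 bases apart within intron 1.

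In colon, all 4 arms were higher in the DSS mice than in the controls, by 2.47 to 3.70 times in the ratio of mean CPM. Among the arms with the common seed, miR-132-3p had 61.3, 90.9 and 111 CPM in DSS mice 1, 7 and 9, and 29.5, 32.7 and 27.6 CPM in control mice 2, 4 and 8. The lowest DSS mouse stood 1.87 times above the highest control. The means were 87.9 ± 25.2 and 29.9 ± 2.61 CPM (SD, n = 3 each), and the log2 fold change was 1.55 (SE 0.24).

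miR-212-3p, with the same seed, was the least abundant arm. It had 26, 46 and 80 counts in DSS mice 1, 7 and 9, and 12, 5 and 15 counts in control mice 2, 4 and 8. In CPM these were 1.86, 2.59 and 3.10 against 0.800, 0.302 and 0.940. The groups did not overlap, though with 5 to 15 counts in the controls the log2 fold change of 1.89 (SE 0.42) carries the largest error of the 4 arms.

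Among the 5p arms, miR-212-5p was the most abundant of the cluster in colon. Its level was 109, 122 and 151 CPM in DSS mice 1, 7 and 9, and 49.6, 46.4 and 47.4 CPM in control mice 2, 4 and 8. The controls lay close together and the lowest DSS mouse was 2.20 times above the highest of them. The means were 127 ± 21.4 and 47.8 ± 1.62 CPM (SD, n = 3 each), with a log2 fold change of 1.41 (SE 0.16), the smallest error of the 4 arms.

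miR-132-5p had 26.6, 39.5 and 49.3 CPM in DSS mice 1, 7 and 9. It had 15.3, 15.4 and 16.1 CPM in control mice 2, 4 and 8. Its log2 fold change was 1.30 (SE 0.24), the smallest of the cluster, with a ratio of the lowest DSS mouse to the highest control of 1.65.

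The DSS mice kept the same order for every arm, with mouse 1 lowest, mouse 7 between and mouse 9 highest. Of all 542 miRNAs tested in colon, 22.5% were higher in all DSS mice than in any control. Significant differential expression (SDE, with a fold change over 1.5 and a Benjamini-Hochberg adjusted p not above 0.05) was found for 10.1%, and 5.9% were SDE and higher in DSS mice. All 4 arms were higher in all DSS mice, as the choice of the cluster required, and no call of significance is given for them. By log2 fold change the arms stood at places 4 (miR-212-3p), 11 (miR-132-3p), 14 (miR-212-5p) and 16 (miR-132-5p) of the 542. Their median log2 fold change was 1.48, against 0.04 over all miRNAs tested.

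With the grouping of the disease-state labels, the same libraries gave log2 fold changes of −0.90 for miR-132-3p, −0.88 for miR-132-5p, −1.19 for miR-212-3p and −0.64 for miR-212-5p in colon. The sign changes because mice 7 and 9, which had the highest levels of all 4 arms, then count as controls.

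**Figure D2:**
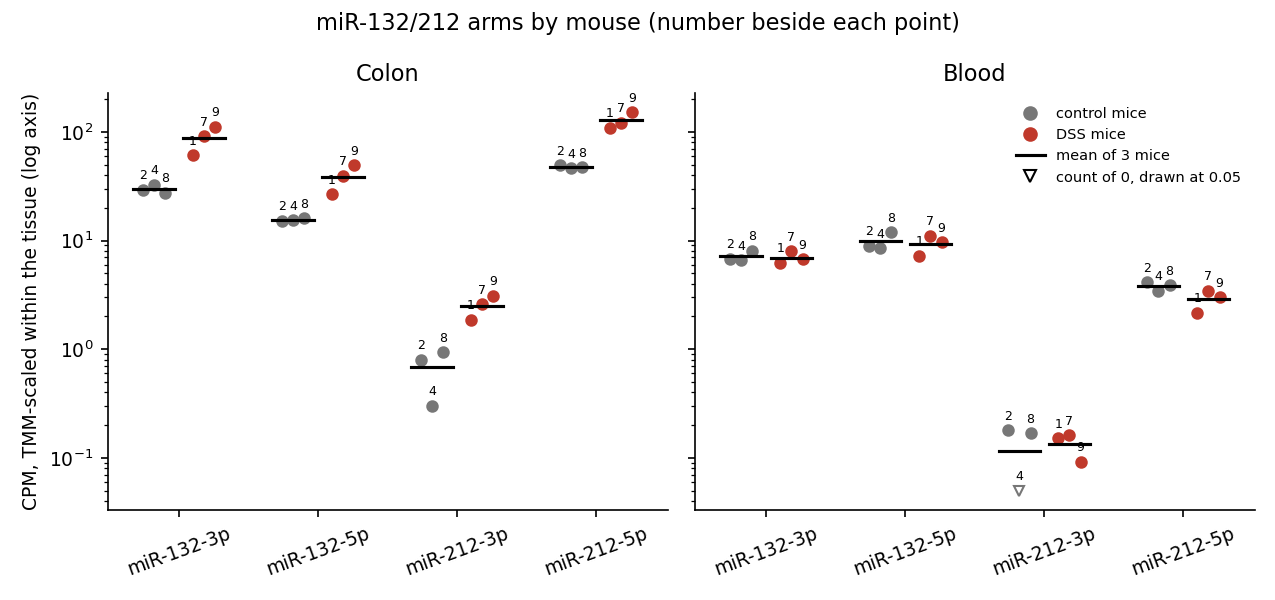
Level of each arm in each mouse in colon and in blood, in CPM scaled within the tissue, on a log axis, with the mouse number beside each point, controls in grey, DSS mice in red and bars at the mean of 3 mice. In colon the DSS mice lie above the controls for all 4 arms, with miR-132-3p at 61.3 to 111 CPM against 27.6 to 32.7 CPM, while in blood its groups overlap.

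The question in blood was whether the circulating compartment of the same animals showed the difference seen in colon. None of the 3 arms that could be tested passed the test between DSS and control mice in blood, and the background was 0% SDE over 484 miRNAs. At an unadjusted p under 0.05 there were 56 miRNAs, and DESeq2 called 10 miRNAs, none of them an arm of the cluster.

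miR-132-3p in blood had 6.24, 7.97 and 6.69 CPM in DSS mice 1, 7 and 9. It had 6.78, 6.56 and 8.04 CPM in control mice 2, 4 and 8. The groups overlapped, and mouse 8, a control, had the highest level. The means were 6.97 ± 0.893 and 7.13 ± 0.797 CPM (SD, n = 3 each), with a log2 fold change of −0.03 (SE 0.23, edgeR adjusted p = 0.970). The interval of 2 SE around that change runs from −0.50 to 0.43.

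miR-132-5p in blood had 7.25, 11.1 and 9.60 CPM in DSS mice 1, 7 and 9, and 8.99, 8.46 and 12 CPM in control mice 2, 4 and 8. The groups overlapped here as well. The log2 fold change was −0.08 (SE 0.26, edgeR adjusted p = 0.938), with an interval of 2 SE from −0.60 to 0.45.

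miR-212-5p in blood had 2.16, 3.45 and 3.00 CPM in DSS mice 1, 7 and 9, and 4.13, 3.45 and 3.87 CPM in control mice 2, 4 and 8. On this scale every DSS mouse was below every control, as were 9.92% of the 484 miRNAs (7.44% lay above), although mouse 7 and mouse 4 were nearly equal. With the authors' size factors, or with total counts alone, the groups overlapped. The log2 fold change of −0.42 (SE 0.26, edgeR adjusted p = 0.584) was not significant, with an interval of 2 SE from −0.93 to 0.10.

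miR-212-3p was at the limit of detection in blood. It had 6, 5 and 2 counts in DSS mice 1, 7 and 9 and 4, 0 and 5 counts in control mice 2, 4 and 8, and it did not pass the filter on low counts. The count of 0 in mouse 4 allows a level of up to 0.127 CPM of the unscaled total (3 counts, counting error only). A difference between the groups was not detectable at this depth.

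With the labels' grouping, the log2 fold changes in blood were −0.21 for miR-132-3p, −0.41 for miR-132-5p and −0.09 for miR-212-5p, and none was significant (edgeR adjusted p = 0.95 for both arms of miR-132 and 0.955 for miR-212-5p). Whether the effect of DSS differs between colon and blood was not tested, since the colon comparison chose the arms.

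**Figure D3:**
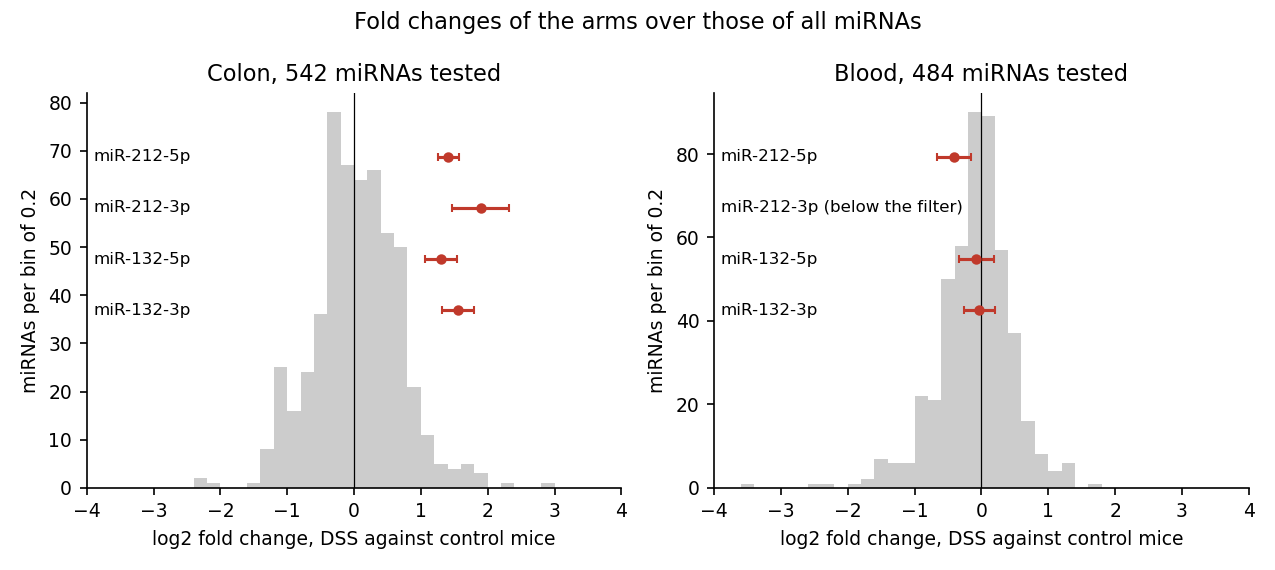
Log2 fold changes of DSS against control mice, with all miRNAs tested as grey histograms (y axis, miRNAs per bin of 0.2) and the arms as red points with bars of 1 SE; the heights of the points have no scale. In colon the arms lie between 1.30 and 1.89, and in blood the 3 arms tested lie between −0.42 and −0.03.

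The arms were next compared between colon and blood in the control mice, with all 6 control libraries scaled together. The control colon libraries were part of the comparison that chose the arms, so the values are given without a test. miR-212-5p and miR-132-3p were higher in all 3 colon libraries than in any of blood, and miR-132-5p overlapped. miR-212-5p had 38.1, 35 and 35.2 CPM in the colon of mice 2, 4 and 8 and 4.38, 3.49 and 5.29 CPM in their blood. Colon was far above blood in each of the 3 mice. The log2 fold change was 3.04 (SE 0.29).

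miR-132-3p had 22.6, 24.6 and 20.5 CPM in the colon of mice 2, 4 and 8 and 7.18, 6.64 and 11 CPM in their blood. The tissues did not overlap, as for 53.4% of miRNAs that were higher in all colon libraries, and the log2 fold change was 1.45 (SE 0.29). miR-132-5p, from the same hairpin, had 11.7, 11.6 and 12 CPM in colon and 9.51, 8.56 and 16.4 CPM in blood, where mouse 8 exceeded all 3 colon libraries. Its log2 fold change was 0.03 (SE 0.31). miR-212-3p, with 12, 5 and 15 counts in colon and 4, 0 and 5 in blood, did not pass the filter.

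These differences are to be read against a background in which 88.6% of 603 miRNAs were SDE between the tissues and 52.9% were SDE and higher in colon, and the median log2 fold change of all miRNAs was 1.20. Relative to that median, miR-212-5p was 1.84 higher, miR-132-3p 0.25 higher and miR-132-5p lower by a difference of −1.16, on the log2 scale. With upper-quartile factors, which moved the median to −0.34, miR-132-3p had a log2 fold change of −0.08 and miR-132-5p one of −1.48, while that of miR-212-5p was 1.49. Relative to the median the arms then stood at 1.84, 0.26 and −1.14. In the mice labelled as controls (7, 8 and 9) the log2 fold changes were 4.09 for miR-212-5p, 2.48 for miR-132-3p and 0.82 for miR-132-5p. That of miR-212-3p, which passed the filter there, was 3.05, with 5, 5 and 2 counts in the blood of mice 7, 8 and 9.

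In the DSS mice the corresponding log2 fold changes of colon against blood were 4.38 for miR-212-5p, 3.07 for miR-212-3p, 2.56 for miR-132-3p and 0.95 for miR-132-5p, with 85.7% of 617 miRNAs SDE. They rest on the DSS colon libraries that chose the cluster and were likewise not tested. miR-212-3p passed the filter here through its colon counts (26, 46 and 80 in mice 1, 7 and 9), with 6, 5 and 2 counts in blood. Its value of 3.07 is therefore uncertain, and it had none with at least 10 counts in every library. The median over all 617 was 0.67. The mice labelled as having colitis (1, 2 and 4) gave 3.72 for miR-212-5p, 1.92 for miR-132-3p and 0.50 for miR-132-5p.

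The make-up of the cluster differed between the tissues, and this can be read within each library without any scaling between libraries. The arms are 22 or 23 bases long, so the counts were not corrected for length, and shares are of reads, since the efficiency of library preparation can differ between sequences. In colon the order miR-212-5p, miR-132-3p, miR-132-5p, miR-212-3p from most to least reads held in 6 of 6 libraries. In blood the order was miR-132-5p, miR-132-3p, miR-212-5p, miR-212-3p in 6 of 6 libraries. The relation of the shares to the tissues was noticed in the counts and is given without a test.

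miR-212-5p held 52.1%, 48.9% and 51.5% of the reads of the 4 arms in the colon of control mice 2, 4 and 8, and 54.9%, 47.8% and 48.0% in that of DSS mice 1, 7 and 9. In blood it held 20.6%, 18.7% and 16.1% in the controls and 13.7%, 15.2% and 15.5% in the DSS mice. The tissues were far apart in every mouse. The groups overlapped in colon. In blood the means were 14.8% ± 0.963 in DSS mice and 18.5% ± 2.26 in controls (SD, n = 3 each), but the nearest mice were within counting error, with 65 of 420 reads in DSS mouse 9 (95% Wilson interval 12.3% to 19.2%) and 114 of 709 reads in control mouse 8 (13.6% to 19.0%). In the labels' grouping the mice of the groups overlapped in blood, with 13.7%, 20.6% and 18.7% against 15.2%, 16.1% and 15.5%.

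**Figure D4:**
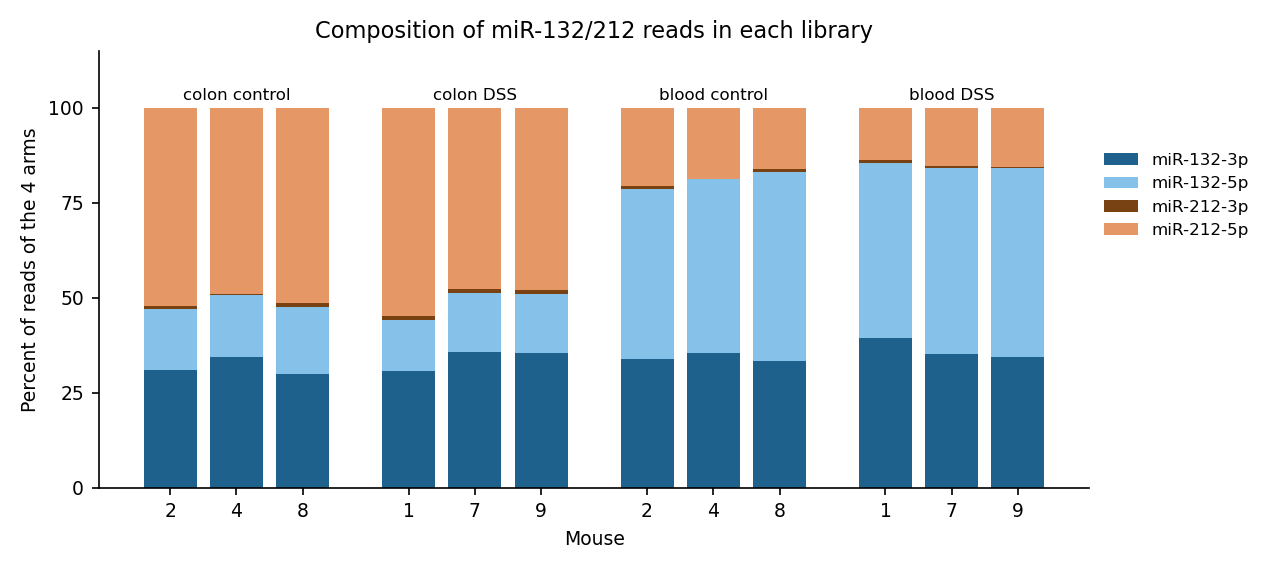
Share of each arm in the reads of the 4 arms (y axis, percent) in each library, ordered by tissue, group and mouse (x axis). miR-212-5p takes 47.8% to 54.9% in colon and 13.7% to 20.6% in blood.

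The balance of the arms of Mir132 also differed. In colon miR-132-5p was the minor arm, with 34.1%, 32.0% and 36.9% of the Mir132 reads in control mice 2, 4 and 8 and 30.3%, 30.3% and 30.7% in DSS mice 1, 7 and 9. In blood it was the major arm, with 57.0%, 56.3% and 59.8% in the controls and 53.7%, 58.2% and 58.9% in the DSS mice. The lowest blood library, with 288 of 536 reads (95% Wilson interval 49.5% to 57.9%), was still above the highest colon library, with 257 of 697 reads (33.4% to 40.5%). Such intervals cover counting error only.

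The difference between the tissues in the control mice was −23.4 points for Mir132 (34.3% ± 2.45 in colon and 57.7% ± 1.86 in blood, SD, n = 3 each). Among 124 hairpins with both arms in the count table and at least 50 reads of the arms together in every library, 55.6% had no overlap between colon and blood in the control mice and 41.9% had none over all mice, so the lack of overlap is common. The median size of the difference was 1.00 point, and Mir132 stood at place 10 of the 124. In 12 of these hairpins 1 arm had no read in any control library, and without them the shares were 61.6% and 46.4% of 112, with Mir132 again at place 10. The place depends on the scale. By the log2 ratio of the 5p to the 3p arm, added after the data were seen, the difference for Mir132 was −1.38 and stood at place 50 of the 112, near the median size of 1.28. The major arm differed between the tissues for 7 of the 124 hairpins (5.65%), namely miR-296, miR-503, miR-15b, miR-181c, miR-223, miR-199a and miR-132, which are named because the list is short and after their values were seen.

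Mir212 showed no such change of arm. miR-212-5p held 97.9% to 99.4% of the Mir212 reads in the colon libraries and 93.5% to 100% in those of blood. It was the major arm in every library, and Mir212 stood at place 54 of the 124 hairpins in points and at place 65 of the 112 by the log2 ratio. In these libraries the 5p arm, whose seed CCUUGGC is not that of the 3p arms, thus carried nearly all reads of Mir212, and most reads with the seed AACAGUC came from miR-132-3p.

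Across the 6 colon libraries Pearson's r between pairs of the 4 arms was 0.922 to 0.991 (median 0.963) on log2(CPM + 1). The arms were chosen for being higher in the DSS mice in these libraries, so a high r was built into the choice. With the group means removed r in colon was 0.427 to 0.943 (median 0.775). In the 6 blood libraries r was 0.0972 to 0.95 (median 0.499), and the median with the group means removed was 0.578. The lowest blood values, 0.0972, 0.321 and 0.428, were those of the pairs with miR-212-3p, which had 0 to 6 counts per blood library. A difference in r between the tissues was not tested. These values share libraries and describe 6 points each.

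The miRNAs whose colon profile was most like the mean of the cluster, by Pearson's r over the 6 libraries on log2(CPM + 1), were miR-199a-3p (r = 0.994), miR-199b-3p (0.993), miR-223-5p (0.984), miR-369-3p (0.982) and miR-501-3p (0.970). Of the 538 miRNAs compared, 31 had an r over 0.9. miR-199a-3p and miR-199b-3p are near-identical in sequence and counts and can share reads, so they are a single observation at most.

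miR-223-5p, from the myeloid miR-223 hairpin, had a mean level of 52.2 ± 12.2 CPM with DSS and 14.8 ± 0.0946 CPM without (SD, n = 3 each). Its log2 fold change was 1.82 (SE 0.20, edgeR adjusted p = 0.0147). Its log2 fold change lay within the range of the arms, and those of the other 4 were smaller. miR-199a-3p, a miRNA of fibroblasts and other mesenchymal cells, had 2536 ± 243 against 1759 ± 44.1 CPM, with a log2 fold change of 0.53 (SE 0.12, edgeR adjusted p = 0.0431), under the fold of 1.5 that SDE requires. miR-369-3p had a log2 fold change of 0.87 (SE 0.17, edgeR adjusted p = 0.0431), and miR-501-3p, at 0.44 (SE 0.13, edgeR adjusted p = 0.0711), did not pass the threshold. These miRNAs were selected for resembling the cluster in the same libraries, so their changes are no independent evidence.

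**Figure D5:**
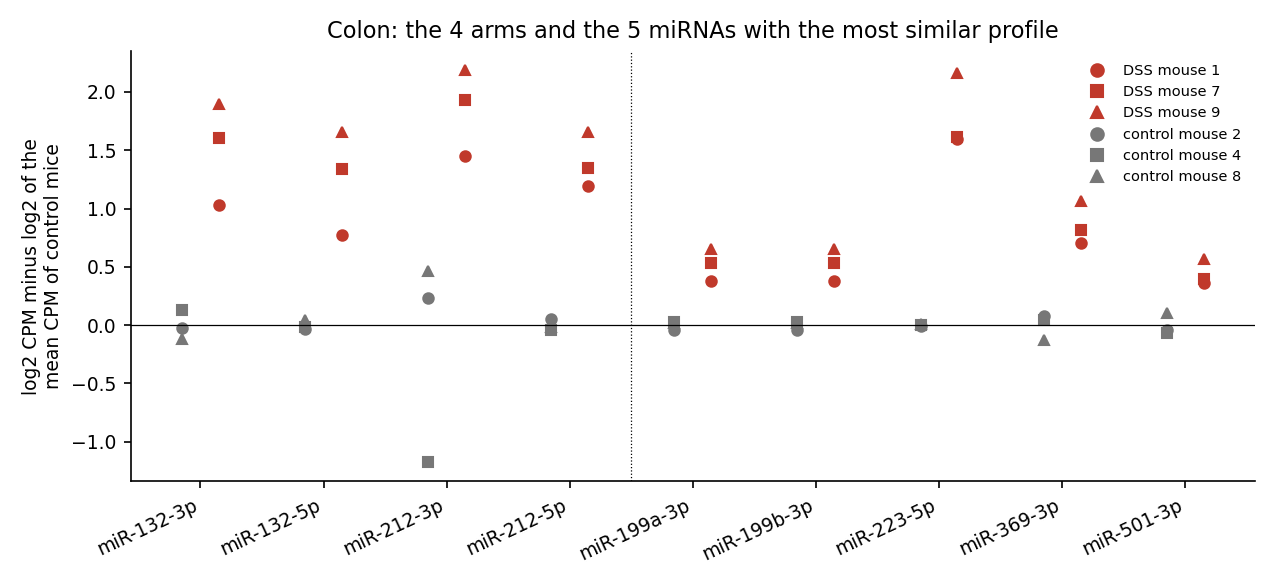
Colon level of the 4 arms and of the 5 miRNAs with the most similar profile, as log2 CPM minus the log2 of the mean CPM of the control mice (y axis), with 1 point per mouse. miR-199a-3p and miR-501-3p follow the order of the DSS mice at smaller sizes, with log2 fold changes of 0.53 and 0.44 against 1.30 to 1.89 for the arms.

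Lists of miRNAs of the inflammatory response, of neurons and of the cell types of the colon were set beside the cluster. In counts of these lists, rose and fell mean SDE and higher or lower in DSS mice. The calls in these lists are fragile, because 0 miRNAs of all tested in colon were SDE without mouse 2, 4, 7 or 8 (edgeR, with 125 to 158 miRNAs at an unadjusted p under 0.05), and 0 under the labels' grouping. Background shares in colon were 5.9% SDE and higher in DSS mice and 4.24% SDE and lower, and the median log2 fold change of all miRNAs was 0.04.

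Of 9 inflammation-induced miRNAs, 2 rose in DSS colon and 0 fell, with a median log2 fold change of 0.68, and 5 were higher in all DSS mice than in any control, against 22.5% of all miRNAs. Both were named after their values were seen. miR-155-5p, an activation-induced miRNA of lymphocytes and macrophages, rose by 1.29 (SE 0.33, edgeR adjusted p = 0.0491), and miR-146a-5p, a feedback regulator of NF-κB signalling, rose by 0.83 (SE 0.18, edgeR adjusted p = 0.0431) on the log2 scale. The most abundant, miR-21a-5p, had a mean of 59588 ± 15180 CPM with DSS and 36699 ± 2364 CPM without (SD, n = 3 each). Its log2 fold change of 0.70 (SE 0.22) missed the threshold (edgeR adjusted p = 0.0863). miR-146b-5p likewise missed it, with a log2 fold change of 0.68 (SE 0.20, edgeR adjusted p = 0.0739). Also named after their values were seen, miR-147-3p, miR-221-3p and miR-222-3p had log2 fold changes of −0.39, −0.33 and −0.22 and were not SDE.

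Of 8 neuronal miRNAs tested, 2 rose in colon and 0 fell, with a median log2 fold change of 0.68. These were miR-218-5p, a miRNA of motor neurons, at 0.90 (SE 0.19, edgeR adjusted p = 0.0431) and miR-129-5p at 0.66 (SE 0.15, edgeR adjusted p = 0.0431), named after their values were seen. Of the 8, 6 were higher in all DSS mice than in any control, against 22.5% of all miRNAs. miR-9-5p is counted in this list and in the inflammation-induced list. The lowest change was that of the brain-enriched miR-124-3p, also named after its value was seen, at −0.07 (SE 0.37, edgeR adjusted p = 0.899). The most abundant of the list, miR-128-3p and miR-9-5p, had log2 fold changes of 0.19 and 0.49 and were not SDE (edgeR adjusted p = 0.416 and 0.0997). In blood, 6 of the 9 listed had counts in all 6 libraries, as 3 of the 4 arms did. Of these 6, miR-128-3p had 66967 to 165692 counts per blood library and 11633 to 21692 per colon library. The rest of the 6 had 1 to 28 counts per blood library. miR-124-3p and miR-137-3p, named after their counts were seen, had a count of 0 in all 6 blood libraries.

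Of 4 myeloid leukocyte miRNAs, 2 rose in colon, and the median log2 fold change was 1.71. The 2 that rose were both arms of the miR-223 hairpin, miR-223-3p, named after its value was seen, and miR-223-5p, by 1.93 (SE 0.41) and 1.82 (SE 0.20) on the log2 scale (edgeR adjusted p = 0.0431 and 0.0147). miR-142a-5p, the most abundant, had a log2 fold change of 1.04 (SE 0.43, edgeR adjusted p = 0.149). The summed level of the 4 was 369, 530 and 1123 CPM in DSS mice 1, 7 and 9 and 254, 379 and 274 CPM in control mice 2, 4 and 8. In the DSS mice this sum had the order of the cluster, with mouse 1 lowest and mouse 9 highest. No other list had a sum in this order, and the inflammation-induced sum was 60917.1, 50614.5 and 81470.7 CPM in mice 1, 7 and 9. Orders of 3 mice were not tested. Most of the myeloid sum was miR-142a-5p, whose groups overlapped. The other 3 myeloid miRNAs were higher in all DSS mice than in any control, against 22.5% of all miRNAs. The part of leukocytes in the level of the cluster was not tested.

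Of 9 epithelial miRNAs, 4 fell in DSS colon and 0 rose, with a median log2 fold change of −1.08, and 7 were lower in all DSS mice than in any control, against 16.1% of all miRNAs. The most abundant, miR-192-5p, had a mean of 34131 ± 14079 CPM with DSS and 83335 ± 10233 CPM without (SD, n = 3 each). Its log2 fold change was −1.29 (SE 0.31, edgeR adjusted p = 0.0491). miR-200b-3p, at −1.09 (SE 0.33, edgeR adjusted p = 0.0764), missed the threshold. The summed level was 136222, 79856 and 55653 CPM in DSS mice 1, 7 and 9 and 163013, 204162 and 185230 CPM in control mice 2, 4 and 8. It thus ran opposite to the cluster among the DSS mice, with mouse 9 lowest, as did the neuronal and endothelial sums. The part of epithelial loss in the level of the cluster was not tested.

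The remaining lists had a single call. Of 4 lymphocyte miRNAs, miR-155-5p was the 1 that rose, and the abundant miR-181a-5p and miR-150-5p had log2 fold changes of −0.07 and 0.39 (edgeR adjusted p = 0.698 and 0.651). Of the endothelial (2 tested), smooth muscle (5 tested) and erythroid (3 tested) miRNAs 0 were SDE in colon, with median log2 fold changes of 0.44, −0.33 and 0.09. Both endothelial miRNAs and 0 of the smooth muscle and erythroid miRNAs were higher in all DSS mice than in any control, against 22.5% of all miRNAs. The endothelial miR-126a-3p had 0.41 (SE 0.12, edgeR adjusted p = 0.0645), the smooth muscle miR-143-3p −0.02 (SE 0.24, edgeR adjusted p = 0.961) and the erythroid miR-451a 0.09 (SE 0.31, edgeR adjusted p = 0.847). The summed erythroid level was 1721 to 2571 CPM in the colon of DSS mice and 1690 to 2351 CPM in that of controls. In blood edgeR called 0 miRNAs of any list, whereas DESeq2 called 3, named after their values were seen. Over all 1121 miRNAs fitted in blood DESeq2 called 10. The 3 listed were miR-223-3p, with a log2 fold change of 1.38 (DESeq2 adjusted p = 0.00339), miR-126a-3p with −1.41 (adjusted p = 0.000891) and miR-215-5p with −0.80 (adjusted p = 0.0485).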

How the data were processed

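Small RNA from colon and blood of 6 mice was counted in 12 libraries. The authors trimmed and collapsed the reads, quantified mature miRNAs with miRDeep2 and deposited the raw counts. They also deposited a normalized signal per tissue, the count divided by a DESeq2 size factor, on build GRCm38. The number of per-sample columns left unmapped was 0. Libraries hold 15060553 to 32944792 counts, and reads carried no molecular identifiers in the sources used here.

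Members, lists and tests were chosen with earlier results of these data known. Named are the 4 arms, the 5 miRNAs tested in colon with the highest Pearson's r with the mean log2(CPM + 1) of the arms, and the 2 most abundant tested in each list; others are said to be named after their values were seen. The counts were tested with edgeR (4.0.16, in R 4.3.3): filterByExpr, TMM factors, glmQLFit and glmQLFTest, Benjamini-Hochberg adjustment, 3 libraries per group, each comparison fitted on its own libraries. The SE of a log2 fold change is its size over the root of the F statistic. Each replicate is a separate mouse. Alternatives were other scalings and filters, DESeq2 (1.42.0), limma (3.58.1) on log2(signal + 1), a single fit, each mouse left out and the labels' grouping. Arm shares were added after the counts were seen. Colon against blood in the control mice had been planned as a test, but its colon libraries entered the choice of the arms, so no p is given for them.

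Colon and blood libraries with the same number come from the same mouse. The correlation of their deviations from the group means, over 357 miRNAs, was −0.30 to 0.16. On simulated counts the edgeR test recovered 51.1% of log2 changes of size 1 in colon and 53.1% in blood. For changes of size 2 it recovered 96.4% and 98.1%, with 3 false calls in colon and 4 in blood. Mature sequences come from the deposited tables, and positions from RefSeq and GENCODE (GRCm38). The total RNA libraries were not analysed here.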

Additional observations from a re-analysis of the deposited data

Results flagged for a closer look

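miR-212-5p was noted because the tissues showed opposite directions. In colon all DSS mice were above all controls (log2 fold change 1.41), and in blood all DSS mice were below all controls (log2 fold change −0.42, edgeR adjusted p = 0.584). The difference between the tissues was not tested. Of 357 miRNAs tested in both tissues, 12 (3.36%) had this pattern, and with the authors' size factors the blood groups of miR-212-5p overlapped (58.2 to 89.7 in DSS mice and 86.5 to 106 in controls, normalized counts).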

How the results depend on the processing

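In colon, the arms kept their direction under every alternative that gave them a value (miR-212-3p had none with at least 10 counts in every library) but the grouping of the disease-state labels, which turned the median log2 fold change from 1.48 to −0.89 (miR-132-3p −0.90, miR-132-5p −0.88, miR-212-3p −1.19, miR-212-5p −0.64). Leaving out each mouse gave medians of 1.31 to 1.62. Total counts alone moved the median of all colon miRNAs from 0.04 to 0.26. The number of SDE miRNAs in colon was 55, but 16 with RLE factors, 8 with upper-quartile factors, 6 with limma, 0 in the fit of all 12 libraries, 76 without a filter, 74 with DESeq2 and 0 to 44 with a mouse left out, so calls in the lists depend on the processing. In blood 0 of the arms were SDE under every alternative. The number over all miRNAs was 0, or 25 without a filter, 10 with DESeq2, 1 in the fit of all 12 libraries and 1 without mouse 2. The median of the arms in blood was −0.08, 0.17 in the fit of all 12 libraries and −0.18 to 0.12 with a mouse left out. Total counts alone moved the median of all blood miRNAs from −0.05 to 0.15. The causes were not tested.

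Between the tissues of the control mice, the median of the arms was 1.45, with 1.06 under RLE factors, 2.03 under total counts, 0.84 with at least 10 counts in every library, 1.20 with each mature sequence counted once, 2.48 under the labels' grouping and 1.17 to 1.68 with a mouse left out. Upper-quartile factors reversed it to −0.081, which is miR-132-3p at −0.081, and gave miR-132-5p −1.48. With the mouse as a replicate block, which pairs the tissues of an animal, miR-132-3p had a log2 fold change of 1.48, miR-132-5p one of 0.09 and miR-212-5p one of 3.06. Without a filter 736 miRNAs were SDE, against 534. In the DSS mice the median of 2.82 became 1.69 with upper-quartile factors, which gave miR-132-5p −0.17, 3.93 with total counts, 3.35 without a filter and 1.92 under the labels' grouping, over the 3 arms that had a value there (2.56 for the same arms in the grouping used). The difference in the 5p share of Mir132 was −23.4 points in the control mice, −26.5 in the DSS mice and −26.4 under the labels' grouping. That in the miR-212-5p share was 32.4 and 35.4 points in control and DSS mice and 33.5 under the labels' grouping. Depth limits miR-212-3p, with 0 to 6 counts per blood library.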
